A study of Mus musculus with 5 samples.

Results

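The 40 genes described here carry out or control cell division. They comprise parts of the DNA replication machinery, enzymes that make its building blocks, cyclins, the kinases that cyclins switch on, the inhibitors of these kinases, the Rb and E2F proteins that set the switch, and genes used to mark dividing cells. They were picked by symbol from the 49671 genes of the FPKM table, by a rule that uses no measured value, and all 40 were also among the 24984 genes of the counts table. The list of symbols itself was chosen with earlier results of these data known.

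A cell that divides passes through a growth phase (G1), DNA synthesis (S), a second growth phase (G2) and mitosis (M). D-type cyclins with Cdk4 and Cdk6 start to inactivate Rb, which frees E2F proteins to switch on the genes of DNA synthesis, and later cyclins drive S phase and mitosis. Microglia, the resident macrophages of the brain, divide little in the healthy adult and multiply around lesions, whereas monocytes arrive from blood and originate from dividing progenitors in bone marrow.

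The cells were sorted at 10 days after focal demyelination (10 dpl) from lesions of the corpus callosum of male wild-type C57BL/6J mice aged 10 weeks, which had been injected with lysophosphatidyl choline (LPC), a lipid that strips myelin. Both groups were CD11b+ Ly6G- CD3- cells and differed only in CD45, which was low for microglia (3 libraries) and high for monocytes (2 libraries, called macrophages derived from monocytes in the sample labels). All mice were wild type and all received LPC, so no unlesioned or untreated library enters, and the study's methods give a far lower cell yield for monocytes than for microglia. The study counts its groups in mice but the labels do not tie a library to an animal, so the p-values below measure the spread between these libraries, part of which may be technical.

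Reads assigned to genes came to between 3417150 and 9021700 per library. All 8 microglial markers and all 6 pan-myeloid markers looked up had reads. The classical monocyte list had uneven coverage. Of its genes, Ly6c1, Ly6c2, Chil3 and F10 were without a read in all 5 libraries and Ccr2, the chemokine receptor that defines these cells, had 12, 52 and 0 microglial reads and no read in either monocyte library. Of the same list, Vcan reached 8006 reads in monocyte library 1 but 0 in library 2. Lyz2, which macrophages of many kinds express, had 970, 648 and 142 FPKM in microglia against 228 and 2191. The whole list summed to 970, 649 and 142 FPKM in microglia and to 390 and 2193 in the monocyte libraries, so library 2 was the highest of the 5 and nearly all of that was Lyz2. The summed FPKM of microglial markers was 415 and 1530.1 in monocyte libraries 1 and 2, against 2247 to 4370 in microglia. T and NK cell markers had reads for 1 of 7 genes, neutrophil markers had at most 1 read per gene and library, and Pdgfra, Sox10, Olig1 and Olig2 of oligodendrocyte progenitors had none. B cell and progenitor markers summed to 13.1 and 12.6 FPKM in microglia library 1, and to at most 0.283 and 2.91 in the other 4 libraries. Neuronal markers summed to 16.6 FPKM in monocyte library 1 and at most 2.69 elsewhere, astrocyte markers to 3.08 to 11.5 in microglia and at most 1.17 in monocytes, and endothelial markers to at most 1.07. The part of these other cell types in the values below was not tested. In sorted populations measured as a whole, fewer dividing cells and less RNA per dividing cell cannot be told apart.

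Division genes often share short promoter motifs, and 5 stretches are printed here because they belong to genes whose reads are described below. They are the 120 bases just before the annotated start (RefSeq, GRCm38.p6), written 5' to 3' along the gene's strand, with matches on either strand in capitals. In Mcm6 (chr1:128359706-128359825, minus strand) the capitals mark E2F-type sites, searched as TTTCCCGC, TTTGGCGC and TTTCGCGC, and in the run TTTGGCGCGAAA a match on each strand overlaps. In Cdk1 (chr10:69352913-69353032, minus), Mki67 (chr7:135716380-135716499, minus), Top2a (chr11:99024190-99024309, minus) and Ube2c (chr2:164769809-164769928, plus) they mark TTTGAA, the core of the CHR element found in many mitotic promoters, and CCAAT, the core bound by the factor NF-Y.
Mcm6: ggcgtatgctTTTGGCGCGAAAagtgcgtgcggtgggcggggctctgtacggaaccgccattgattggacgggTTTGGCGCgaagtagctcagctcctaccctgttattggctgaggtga
Cdk1: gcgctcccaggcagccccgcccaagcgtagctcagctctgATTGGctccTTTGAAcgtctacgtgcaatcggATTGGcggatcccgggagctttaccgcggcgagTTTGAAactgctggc
Mki67: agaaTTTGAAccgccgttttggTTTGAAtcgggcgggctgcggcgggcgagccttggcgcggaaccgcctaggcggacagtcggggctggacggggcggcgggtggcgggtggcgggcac
Top2a: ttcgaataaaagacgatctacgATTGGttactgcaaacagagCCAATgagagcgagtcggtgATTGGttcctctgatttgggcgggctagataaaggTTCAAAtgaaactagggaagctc
Ube2c: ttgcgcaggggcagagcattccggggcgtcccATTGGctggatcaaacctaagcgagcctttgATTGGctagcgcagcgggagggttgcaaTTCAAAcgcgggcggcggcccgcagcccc

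A promoter window running from 250 bases before the start to 50 bases after it was matched for 31 of the 40 genes. CCAAT occurred in 24 of the 31 (77.4%), against 41.1% of 27025 genes with a window. TTTGAA occurred in 10 of 31 (32.3%, against 20.2%). An E2F-type site occurred in 7 of 31 (22.6%, against 2.12%), namely Cdk1, Cdk2, E2f3, Mcm3, Mcm5, Mcm6 and Mcm7. A match of letters is a description and no evidence of binding. FPKM in both monocyte libraries was below that in each microglia library for 2 of the 7 with an E2F-type site and 8 of the 24 without one, beside 48.0% of all genes tested. The same held for 7 of 24 with CCAAT and 3 of 7 without it, and for 1 of 10 with TTTGAA and 9 of 21 without it. Some of the 31 genes had too few reads to be tested, so the 48.0% is over an unlike set.

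At least 1 read of most division genes was found in each library, and 10 or more reads of most of them in microglia libraries 1 and 2 alone. A read was present for 39, 38 and 30 of the 40 genes in microglia libraries 1 to 3 and for 28 and 29 in monocyte libraries 1 and 2. With a minimum of 10 reads the counts were 32, 33 and 13 in microglia, and 3 and 11 in monocytes. As shares of the 40 these were 80.0%, 82.5%, 32.5%, 7.5% and 27.5%, beside 58.2%, 57.2%, 32.1%, 7.83% and 23.1% of the 16511 protein-coding genes of the counts table. The share for division genes thus stood above that of all protein-coding genes by over 20 percentage points in microglia libraries 1 and 2 and lay within 5 of it in the other 3, which was not tested.

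**Figure D1:**
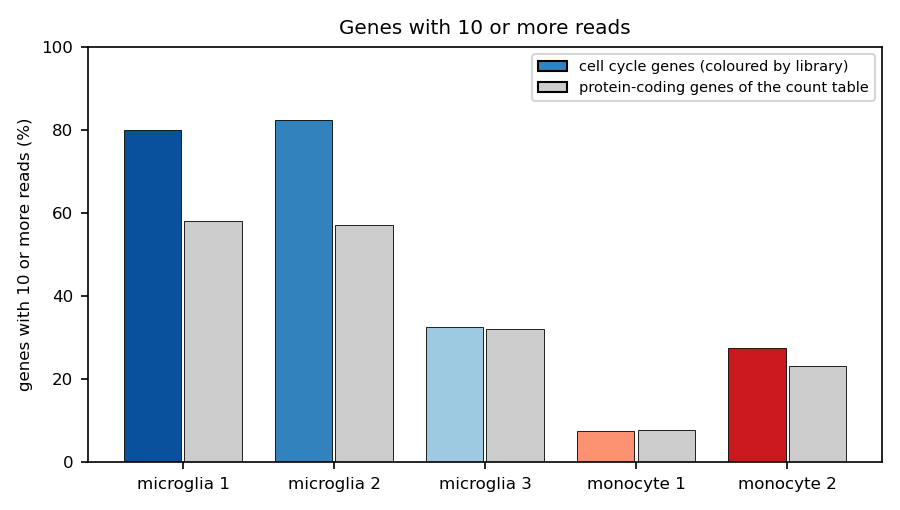
Share of genes (%) with 10 or more reads in each of the 5 libraries, for the 40 division genes (coloured bars) and for 16511 protein-coding genes (grey bars). The coloured bars reach 80.0% and 82.5% in microglia libraries 1 and 2 and 7.5% in monocyte library 1, where the grey bar is at 7.83%.

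The 40 genes together took 8276, 14963 and 6390 microglial reads and 114 and 8645 monocyte reads. In CPM, reads scaled to the library total, that was 1248, 1659 and 1085 in microglia and 33.4 and 1327 in the monocyte libraries. The monocyte libraries differed from each other far more than microglia libraries did, and the summed level of monocyte library 2 lay inside the microglial range in CPM. Summed as FPKM, the levels were 232, 265 and 191 in microglia and 6.18 and 148 in monocytes, with both monocyte libraries below that range. A single gene carried much of each sum. Cdk6 gave 65.4% of these reads in monocyte library 2, 33.0% in microglia library 1 and 18.4% in monocyte library 1, while Mki67 gave 31.4% in microglia library 2 and Rb1 40.9% in microglia library 3. The leading 3 genes gave 88.7% in monocyte library 2 and 80.1% in microglia library 3, against 52.6% to 61.1% elsewhere. The median FPKM of the 40 genes, which no single gene sets, was 2.51, 2.76 and 0.0863 in microglia and 0.121 and 0.113 in monocytes. By this measure microglia library 3 sat below both monocyte libraries, but such low medians rest on few reads per gene. In monocyte library 1, 1 read gave 0.0815 FPKM for Mcm4 and 0.116 for Aurka, so the order of these low medians is uncertain.

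Only 3 genes, Cdk6, Mki67 and Top2a, had 10 or more reads in every library, and 21 had at least 1 read in each. In both monocyte libraries 29 genes stayed under 10 reads. The 8 genes with 10 or more reads in a single monocyte library all had them in library 2. Among microglia, 28 genes reached 10 reads in libraries 1 and 2 and 13 reached them in all 3. By FPKM the highest microglial value was in library 1 for 16 genes, in library 2 for 19 and in library 3 for 5.

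**Figure D2:**
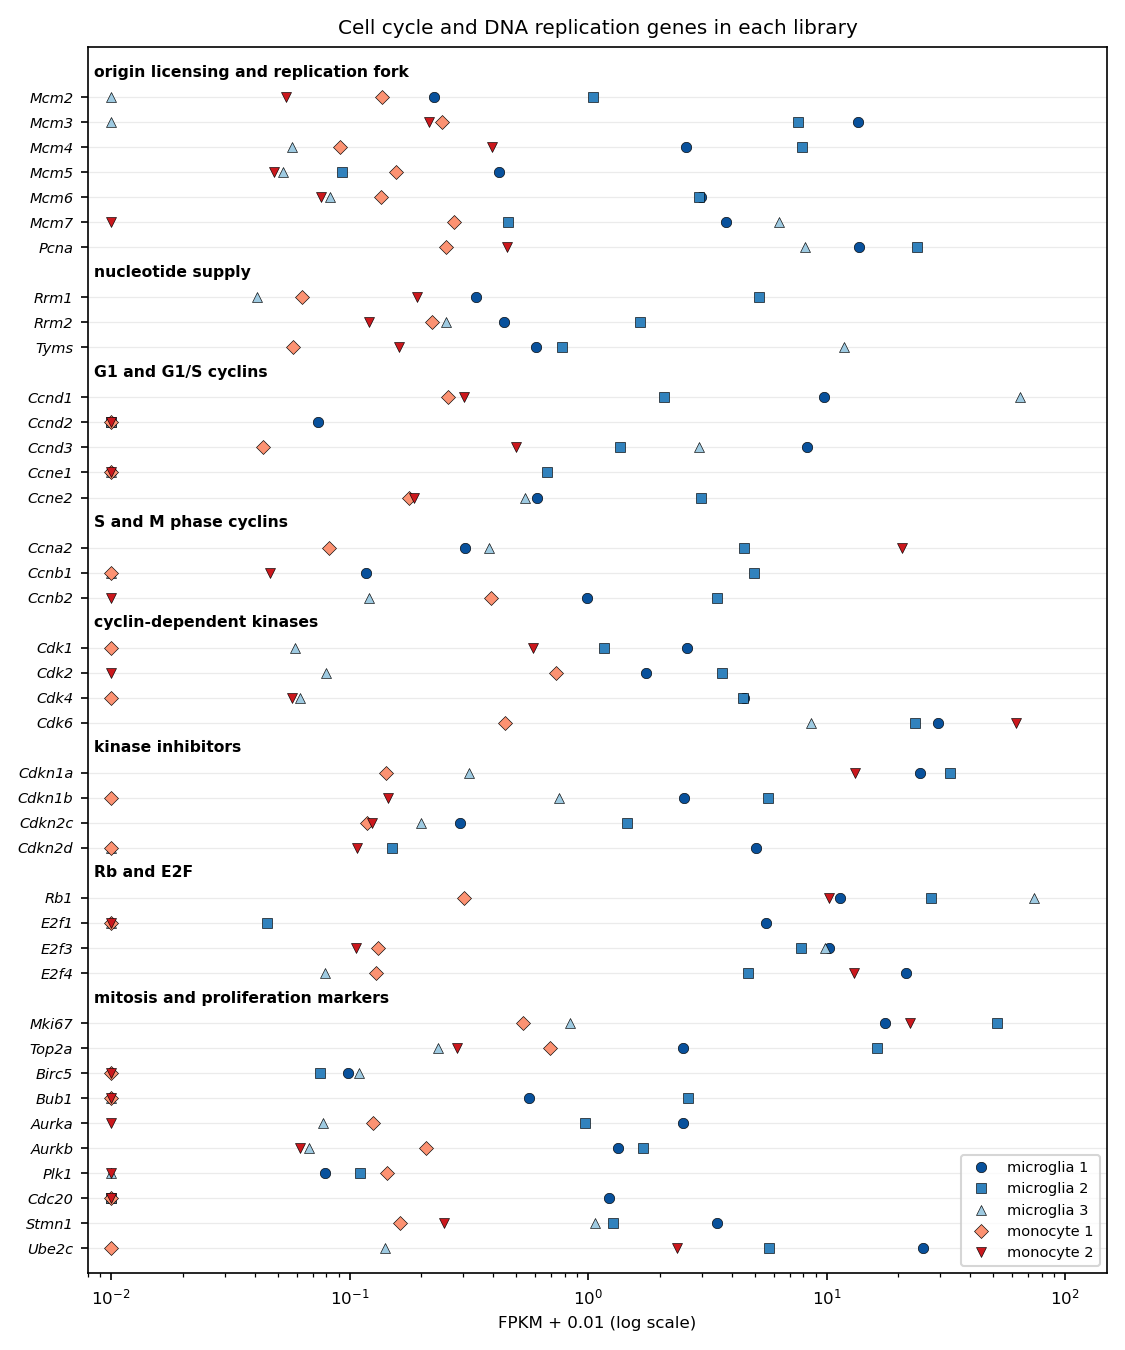
FPKM of the 40 genes in each library, with 0.01 added so that a value of 0 can be drawn on the log axis, grouped by role. Circles, squares and triangles are microglia libraries 1 to 3, diamonds and inverted triangles monocyte libraries 1 and 2. Symbols of both monocyte libraries lie to the left of all microglial ones for 14 genes, among them Pcna, E2f3 and Ccnd1, and to the right for 0.

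FPKM, a level scaled to gene length and library total, in both monocyte libraries was below that in each microglia library for 14 of the 40 genes and above it for 0, and the groups overlapped for 26. Birc5 is among the lower genes by 2 reads in each microglia library against none, too few for its level to be compared. Cdk4 is among them by 1 read in microglia library 3 against 1 in monocyte library 2 (0.0523 against 0.0472 FPKM). In the same 2 libraries Cdkn2c had 3 reads against 2, and Rrm2 had 4 against 2, so these separations are also uncertain. The 14 were Mcm7, Pcna, Rrm2, Tyms, Ccnd1, Ccnd3, Ccne2, Cdk4, Cdkn1b, Cdkn2c, Rb1, E2f3, Birc5 and Stmn1. Of all 10105 genes that passed the expression filter, 48.0% were lower in both and 0.673% higher in both, and of the 27 division genes that passed it 11 (40.7%) were lower, which is no more than that background. The filter passed most genes through their microglial reads. Of the 10105, 97.7% and 97.6% had 10 or more reads in microglia libraries 1 and 2, against 13.1% and 40.4% in monocyte libraries 1 and 2. Shares of all genes tested are therefore not a neutral background, here or elsewhere. Without microglia library 3 the count was 31 of 40, beside 75.5% of all genes tested, and it was 20 with monocyte library 1 left out (55.2% of all genes) and again 20 with library 2 left out (71.4%). The scale decided much of this. With CPM divided by the TMM factors, which correct each library for its composition, 4 genes (Pcna, Cdkn1b, E2f3 and, on the same few reads, Birc5) stayed lower in both, against 21.5% of all genes tested. The counts with a library left out or on the TMM scale are over all 40 genes, of which 27 passed the filter. The shares beside them are over genes that passed it, an unlike set. Each member was also limited by the design, in which a permutation of 3 against 2 libraries cannot give a p below 0.1.

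In the following, reads and FPKM are listed for microglia libraries 1 to 3 and then for monocyte libraries 1 and 2. The Mcm2 to Mcm7 proteins form the ring that is loaded on DNA as the replicative helicase, and Pcna is the sliding clamp of DNA polymerase. Pcna (chromosome 2, 132249162 to 132253314) had 217, 521 and 115 microglial reads and 2 and 7 monocyte reads, or 13.6, 24.1 and 8.14 FPKM against 0.244 and 0.448. Apart from Mcm7, no other gene of its group had more than 10 reads in every microglia library. Mcm7 had 111, 18 and 165 microglial reads and 4 and 0 monocyte reads. Mcm3 had 336, 257 and 0 microglial reads and 3 and 5 monocyte reads, and Mcm4 had 61, 256 and 1 against 1 and 9. Mcm6 had 92, 122 and 2 reads in microglia and 2 in each monocyte library. By reads, Mcm3, Mcm4 and Mcm6 were abundant in microglia libraries 1 and 2 and scarce in microglia library 3 and in monocytes. The order depends on the scale. With CPM divided by the TMM factors, Mcm6 had 3.68, 4.95 and 0.198 in microglia against 6.30 and 0.503. On that scale Mcm3 had 13.5, 10.4 and 0 against 9.45 and 1.26, and Mcm4 had 2.44, 10.4 and 0.0991 against 3.15 and 2.26. Mcm2 had 10, 65 and 0 reads in microglia against 3 and 2, and Mcm5 had 11, 3 and 1 against 2 and 1. The 7 genes summed to 37.1, 44.0 and 14.6 FPKM in microglia and to 1.22 and 1.19 in monocytes. In the quasi-likelihood test of edgeR, scaled by TMM, none of the 5 genes tested was called. Their log2 fold changes of monocytes over microglia were all negative, from −1.94 for Pcna (SE 2.16, adjusted p = 0.665) to −0.06 for Mcm6 (SE 2.42, adjusted p = 0.992). Of all genes tested, 63.7% were negative and the median was −1.11, and of the 5 only Pcna lay below that median.

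Rrm1 and Rrm2 are the subunits of ribonucleotide reductase, which makes deoxyribonucleotides, and Tyms makes the thymidine nucleotide. Tyms had 24, 42 and 423 microglial reads and 1 and 6 monocyte reads, so its peak was in microglia library 3, where Mcm2 to Mcm6 had their lowest microglial levels. Rrm1 had 24, 515 and 2 microglial reads and 2 and 13 monocyte reads. Rrm2 had 8, 41 and 4 reads in microglia and 2 in each monocyte library. Tyms and Rrm1 had log2 fold changes of −2.82 (SE 2.28, adjusted p = 0.558) and −0.68 (SE 2.13, adjusted p = 0.888) by edgeR. For Tyms the value was 0.51 without microglia library 3.

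D-type cyclins partner Cdk4 and Cdk6 in G1, and E-type cyclins partner Cdk2 at entry into S phase. Ccnd1 (chromosome 7, 144929931 to 144939925) had 305, 88 and 1792 microglial reads and 4 and 9 monocyte reads, or 9.76, 2.07 and 64.6 FPKM against 0.249 and 0.293. Every microglia library exceeded both monocyte libraries, and library 3 held most of the microglial reads. By library totals, the scale on which the median of all genes tested was −4.73 on the log2 scale, the pooled level of Ccnd1 was 77.5 times higher in microglia, or 19.2 times without microglia library 3, and by TMM-scaled totals it was 12.1 times higher. Its log2 fold change by edgeR with TMM scaling was −3.23 (SE 2.17, adjusted p = 0.522), or −0.28 without microglia library 3. Ccnd3 had 480, 107 and 150 reads in microglia against 1 and 28, and Ccnd2 had 4 reads in microglia library 1 alone. Ccne2 had 14, 94 and 11 reads against 2 and 4, and Ccne1 had 16 reads in microglia library 2 alone. Of the D-type cyclins, then, Ccnd1 and Ccnd3 had reads in all 5 libraries, while Ccnd2 was barely detected. Ccne2 overlaps Ints8 on the opposite strand, which had 886, 966 and 3747 microglial reads and 4 and 2717 monocyte reads.

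Cyclin A2 acts in S phase and G2, and cyclins B1 and B2 with Cdk1 drive mitosis. Ccna2 (chromosome 3, 36564865 to 36572150) had 8, 166 and 9 microglial reads and 1 and 551 monocyte reads, or 0.295, 4.51 and 0.374 FPKM against 0.0717 and 20.7. Monocyte library 2 was the highest and monocyte library 1 the lowest of the 5. Ccna2 had the largest positive value among the division genes tested, with a log2 fold change of 4.75 by edgeR (SE 1.94, adjusted p = 0.256), which was −0.73 without monocyte library 2. Ccnb1 had 3, 189 and 0 microglial reads and 0 and 1 monocyte reads, and Ccnb2 had 10, 48 and 1 against 2 and 0. The cyclin A reads of monocyte library 2 were therefore not matched by cyclin B reads in the same library. A pseudogene of Ccnb2, Ccnb2-ps, had 56 reads in microglia library 3, so the low count of Ccnb2 there is uncertain.

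Cdk6 and Cdk4 are the kinases of G1, Cdk2 acts at S phase and Cdk1 at mitosis. Cdk6 (chromosome 5, 3341485 to 3531008) had 2727, 2957 and 712 microglial reads and 21 and 5654 monocyte reads, or 29.4, 23.4 and 8.64 FPKM against 0.439 and 62.0. The monocyte libraries lay on either side of all 3 microglia libraries. Its log2 fold change was 2.89 (SE 2.05, adjusted p = 0.531), and −1.56 without monocyte library 2. Cdk4, its close relative, reached 4.50, 4.47 and 0.0523 FPKM in microglia against 0 and 0.0472. Cdk1 had 59, 36 and 1 reads against 0 and 13, and Cdk2 had 28, 80 and 1 against 6 and 0. The positive log2 fold change of Cdk2, 2.55 (SE 2.23, adjusted p = 0.580), came from the 6 reads of monocyte library 1, which has the TMM factor 0.0929, and was −7.61 without that library.

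Cdkn1a (p21) and Cdkn1b (p27) inhibit cyclin-dependent kinases broadly, and Cdkn2c and Cdkn2d inhibit Cdk4 and Cdk6. Cdkn1a had 364, 661 and 4 microglial reads and 1 and 191 monocyte reads, or 24.7, 33.0 and 0.305 FPKM against 0.132 and 13.2. In each group 1 library was near 0, and the log2 fold change was 0.92 (SE 1.77, adjusted p = 0.807), or −3.10 without monocyte library 2. Cdkn1b had 76, 232 and 20 microglial reads and 0 and 4 monocyte reads. It was lower in both monocyte libraries on the FPKM and on the TMM scale, with a log2 fold change of −2.69 (SE 2.62, adjusted p = 0.615). Cdkn2c had 5, 35 and 3 reads against 1 and 2, and Cdkn2d had 53, 2 and 0 against 0 and 1.

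Rb1 restrains entry into S phase, E2f1 and E2f3 activate transcription, and E2f4 mostly represses it in resting cells. Rb1 (chromosome 14, 73183673 to 73325822) had 452, 1490 and 2614 microglial reads and 6 and 402 monocyte reads, or 11.3, 27.5 and 73.8 FPKM against 0.292 and 10.3. The lowest microglia library and the higher monocyte library nearly touched. E2f3 (chromosome 13, 29906575 to 29986063) varied least among the 40 genes across microglia relative to its mean FPKM, with 326, 339 and 278 reads there and 2 and 3 in monocytes, or 10.3, 7.84 and 9.85 FPKM against 0.122 and 0.0961. Its mean FPKM was 9.31 ± 1.29 (SD, n = 3) in microglia and 0.109 ± 0.0184 (SD, n = 2) in monocytes, a pooled CPM 86.9 times higher in microglia, or 13.6 times with TMM-scaled totals. The log2 fold change with TMM scaling was −2.67 (SE 2.24, adjusted p = 0.570). E2f4 had 349, 103 and 1 microglial reads and 1 and 208 monocyte reads, with a log2 fold change of 2.22 (SE 1.79, adjusted p = 0.558), or −1.88 without monocyte library 2. E2f1 had 116, 1 and 0 microglial reads and no monocyte read, a pooled level at least 18.0-fold lower by library totals and at least 2.81-fold by TMM-scaled totals, which rested on microglia library 1. These bounds take 3 reads over the group as the limit of a count of 0. By library totals the median of all genes tested was −4.73 on the log2 scale, a larger fall than the 18.0-fold bound of E2f1. The 4 genes summed to 48.6, 39.99 and 83.7 FPKM in microglia and to 0.533 and 23.4 in monocytes.

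Among genes used to mark dividing cells, Mki67 encodes the Ki-67 protein and Top2a the topoisomerase that untangles replicated DNA. Mki67 (chromosome 7, 135689784 to 135716361) had 1174, 4694 and 49 microglial reads and 18 and 1466 monocyte reads, or 17.6, 51.7 and 0.827 FPKM against 0.524 and 22.4. Monocyte library 2 lay between microglia libraries 1 and 2, and monocyte library 1 was the lowest of the 5. The log2 fold change of Mki67 was 1.40 with TMM scaling (SE 1.89, adjusted p = 0.718), −1.04 with library totals, and −1.48 without monocyte library 2. Top2a had 149, 1323 and 12 microglial reads and 21 and 16 monocyte reads, or 2.49, 16.3 and 0.226 FPKM against 0.682 and 0.272. Whereas Mki67 was abundant in monocyte library 2, Top2a was not, and in both microglia libraries 1 and 2 the pair were present together. Top2a had a log2 fold change of 0.78 (SE 1.80, adjusted p = 0.841), or −2.64 without monocyte library 1.

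Of the remaining mitotic genes, Ube2c alone had more than 3 reads in a monocyte library, and in microglia library 3 Stmn1 alone did. Ube2c, which tags mitotic cyclins for destruction, had 437, 135 and 2 microglial reads and 0 and 40 monocyte reads. Bub1, a kinase of the spindle checkpoint, had 16, 103 and 0 microglial reads and no monocyte read. Its pooled level was at least 18.3-fold lower by library totals and at least 2.86-fold by TMM-scaled totals, which rested mostly on microglia library 2. By library totals the median of all genes tested was −4.73 on the log2 scale, a larger fall than the 18.3-fold bound of Bub1. Aurka and Aurkb, the Aurora kinases of the spindle and the chromosomes, had 42, 22 and 1 and 26, 45 and 1 reads in microglia, and at most 2 in a monocyte library. Stmn1, which destabilises microtubules, had 44, 22 and 12 microglial reads and 1 and 3 monocyte reads. It was thus the only gene of these 5 with 10 or more reads in all 3 microglia libraries. Cdc20, which activates the same destruction machinery, had 15 reads in microglia library 1 and none elsewhere. Birc5 (survivin) had 2 reads in each microglia library and Plk1, a mitotic kinase, at most 2 in any library, so neither level could be compared at this depth. Of all 40 genes, 6 (Ccnd2, Ccne1, E2f1, Birc5, Bub1 and Cdc20) had no read in either monocyte library.

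**Figure D3:**
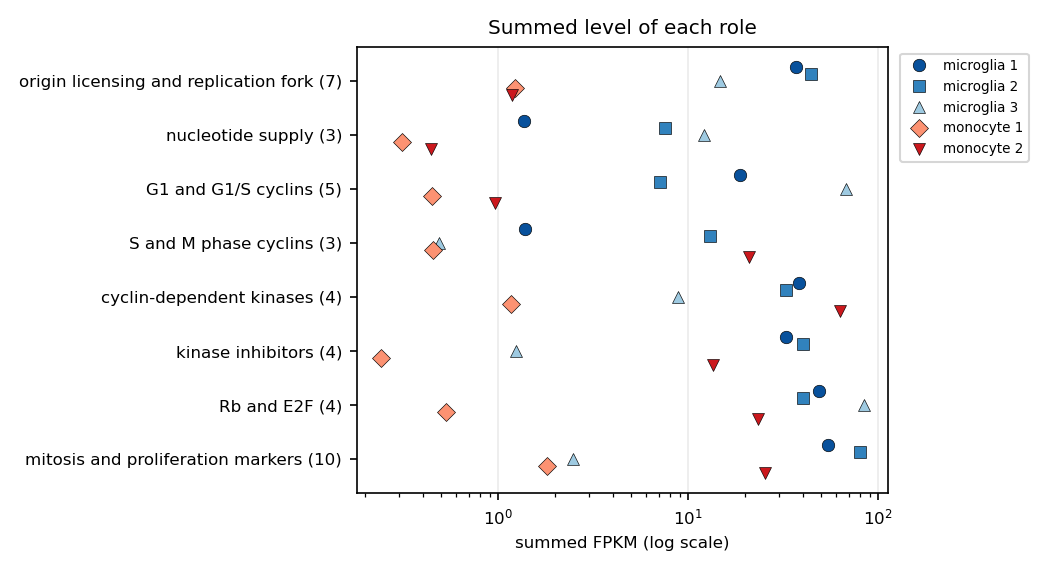
Summed FPKM of the genes of each role in each library, on a log axis, with the number of genes in brackets. Both monocyte libraries lie below all microglia libraries in 4 of the 8 roles (licensing and fork, nucleotide supply, G1 and G1/S cyclins, Rb and E2F), and the S and M phase cyclins span 0.454 to 20.8 FPKM between the monocyte libraries.

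Summed by role, 4 of 8 groups were lower in both monocyte libraries (licensing and fork, nucleotide supply, G1 and G1/S cyclins, Rb and E2F) and 0 were higher. When FPKM was divided by the TMM factors 0 groups were lower in both and 2 were higher (S and M phase cyclins, cyclin-dependent kinases), so these directions depend on the scale. In microglia library 3 the sum was 68.0 FPKM for G1 and G1/S cyclins and 83.7 for Rb and E2F, the highest of the 5 libraries, and 0.485 for S and M phase cyclins, 1.24 for inhibitors and 2.47 for mitosis genes, the lowest of the 3 microglia libraries. Monocyte library 2 paired 62.7 FPKM for cyclin-dependent kinases and 25.3 for mitosis genes with 1.19 for licensing and fork genes. Monocyte library 1 had at most 1.81 FPKM in any role.

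No division gene passed an adjusted p of 0.05 in edgeR, where 27 of the 40 had enough reads to be tested, or in limma-voom. Across all 10105 genes edgeR called 6 higher (0.0594%) and 0 lower (0.0%) in monocytes, and limma-voom 32 higher (0.317%) and 0 lower. At an unadjusted p under 0.05 by edgeR, 1 division gene (Ccna2) was higher and 0 were lower, against 8.52% and 3.35% of all genes tested. DESeq2 called 1 division gene higher (Ccna2, adjusted p = 0.0104) and 0 lower, where it called 10.1% of all genes higher and 1.03% lower. Among the division genes, it gave an adjusted p only for Ccnd1, Ccna2, Cdk6, Cdkn1a, Rb1, E2f3, E2f4, Mki67 and Top2a. Genes without one counted as not called, here, in the wider list below and over all genes. The adjusted p of edgeR for the 27 genes ran from 0.256 to 0.997. The expression filter removed 13 genes (Mcm2, Mcm5, Rrm2, Ccnd2, Ccne1, Ccnb1, Ccnb2, Cdkn2c, Cdkn2d, E2f1, Birc5, Plk1 and Cdc20), most of which had their reads in microglia.

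The median log2 fold change of the 27 genes was −0.38 with TMM factors, against −1.11 over all genes tested, and 15 of the 27 (55.6%) had negative values, against 63.7% of all genes. With library totals in place of the TMM factors the medians were −3.85 and −4.73, and with RLE factors 0.24 and −0.63. Under each of these scalings the median of the division genes lay above that of all genes, a difference that was not tested. Microglia libraries had TMM factors of 3.76, 2.73 and 1.71 and monocyte libraries of 0.0929 and 0.611, so a fold change of this comparison is to be read against the median of all genes.

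**Figure D4:**
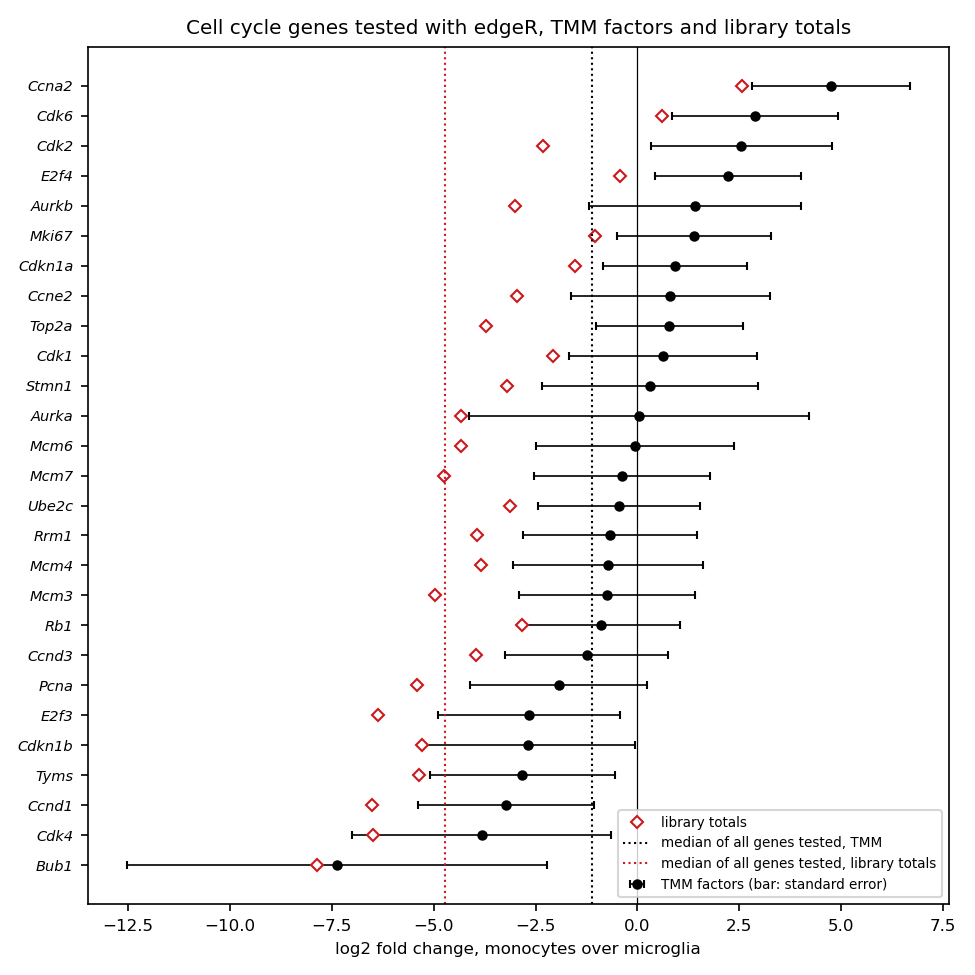
Log2 fold change, monocytes over microglia, of the 27 division genes tested by edgeR with TMM factors (black points, bars are ± 1 standard error) and with library totals (open red diamonds). Dotted lines are the medians of all genes tested, −1.11 and −4.73, and the black points run from −7.38 for Bub1, whose monocyte count is 0 so that the fitted value is no bound, to 4.75 for Ccna2.

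A wider list, taken from textbook knowledge but with earlier results of these data known, held further genes of DNA replication, checkpoints and mitosis. The share with 10 or more reads was 70.3%, 79.7% and 21.9% in microglia and 5.47% and 18.0% in monocytes, beside the shares of protein-coding genes given above (58.2%, 57.2%, 32.1%, 7.83% and 23.1%). Of the 85 tested, edgeR and limma-voom called 0, 12 were higher and 2 lower at an unadjusted p under 0.05 by edgeR (8.52% and 3.35% of all genes tested), and DESeq2 called 10 higher and 1 lower (10.1% and 1.03%). The median log2 fold change was −0.997, and FPKM was lower in both monocyte libraries for 32 of the 85 tested (37.6%), against the 48.0% of all genes tested given above, and higher in both for 0. The 6 genes with the smallest p each had nearly all their monocyte reads in 1 library. Spc24, a kinetochore protein, had 3, 18 and 2 microglial reads and 0 and 954 monocyte reads (8.37 on the log2 scale by edgeR, SE 2.28, adjusted p = 0.0964). Racgap1, which acts in cytokinesis, had 15, 31 and 2 against 1 and 1215, Lin52, a subunit of the DREAM complex, 9, 25 and 3 against 0 and 1437, and Pole2, a subunit of DNA polymerase epsilon, 10, 98 and 3 against 0 and 1636. These 4 had their reads in monocyte library 2. Prim1, the DNA primase, had 40, 32 and 0 against 356 and 0, and Uhrf1, which maintains DNA methylation, 39, 4 and 0 against 101 and 1, so their reads lay in monocyte library 1. No gene among the 6 was high in both monocyte libraries.

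Reads of overlapping genes limit some of these values, because 10 of the 40 genes overlap a protein-coding gene on the opposite strand and the library kit is not stated to mark strand. Rb1 overlaps Rcbtb2, with 1150, 1565 and 1066 microglial and 7 and 925 monocyte reads, and Lpar6, with 1102 reads in microglia library 3. Ccna2 overlaps Exosc9, which had 36, 51 and 2 microglial reads and 0 and 3 monocyte reads, far fewer than the 551 reads of Ccna2 in monocyte library 2.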

How the data were processed

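RNA was sequenced from sorted microglia (3 libraries) and monocytes (2 libraries). The authors aligned read pairs with STAR to GRCm38 (the submitters' notes name STAR 2.5.2a, R 3.3.2, edgeR 3.16.5 and limma 3.30.8) and counted them per gene on GENCODE vM12. The deposited counts are whole read pairs per gene. The deposited FPKM are scaled by the authors to gene length and library total, with no TMM factor. Their log2 CPM table and 2 comparison tables (fold changes and p-values) were not used, nor were 4 columns of other samples in each table.

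Genes were matched by ID. edgeR 4.0.16 (R 4.3.3) fitted the counts of the 5 libraries scaled by TMM, after its group-wise filter on low expression, and p-values were adjusted over 10105 genes (Benjamini-Hochberg). The SE is the log2 fold change divided by the root of its F statistic. limma 3.58.1 (voom), DESeq2 1.42.0, library totals, RLE factors, other filters, TMM factors from genes with at least 10 reads in every library, other detection minimums and leaving out each library were alternatives. Tables were made with Python 3.11.15, numpy 2.4.6, pandas 2.3.3 and matplotlib 3.10.9. The fits were also run on counts simulated from a profile shared by all libraries, with known changes set in some genes. Composition did not otherwise differ between the simulated libraries, so the scaling used here was not tested by them. For a count of 0 the limit was 3 reads, which is 0.333 to 0.878 CPM per library and covers counting error only. Pooled CPM is the reads of a group over its total reads. Named genes were all 40 members and the 6 of the wider list with the smallest p from edgeR. The 40 members, the wider list and the markers were chosen with earlier results of these data known. Coordinates are from GENCODE vM21 and promoters from RefSeq, both on GRCm38. A marker gene looked up is not reported here.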

Additional observations from a re-analysis of the deposited data

How the results depend on the processing

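No paired analysis was possible because microglia and monocytes have no replicate number in common. The 27 tested division genes and 6 further genes had 377 alternative values. None of these genes was called in the main fit, so there was no call to keep. Of the values, 301 kept direction and stayed without a call, where a missing adjusted p counted as no call, and 64 turned direction. By DESeq2, 6 kept direction and passed the threshold, and the rest came from fits with only 1 monocyte library. Over all genes, calls higher in monocytes numbered 6 by edgeR, 32 by limma-voom, 1016 by DESeq2, 0 with library totals, 70 with no filter, 14 with a CPM filter, 3 with TMM factors from genes with at least 10 reads in every library, and 0 to 343 with 1 library left out. The upper end of that last range came from a fit with only 1 monocyte library, which took its spread from microglia alone. Calls lower numbered 0 by edgeR and 104 by DESeq2. The median of all genes was −1.11, −4.73 with library totals, −3.06 with TMM factors from well covered genes, and −3.51 to −1.01 with 1 library left out.

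The median of the division genes (−0.38) turned to 0.48 with limma-voom, 0.26 with DESeq2 and 0.24 with RLE factors, and was −3.85 with library totals, −2.21 with TMM factors from well covered genes and −2.23 to −0.15 with 1 library left out. Each fit with 1 library left out applied its own filter. Such fits tested 19 to 37 division genes, 43 to 108 genes of the wider list and 6606 to 13122 genes in all. Their medians therefore mix a change of libraries with a change of genes. DESeq2 called 1 of the division genes higher and gave no adjusted p for many of them. A fit without monocyte library 1 or 2 held a single monocyte library and took its spread from microglia alone. Calls from such a fit, in the wider list and over all genes, carry no measure of the spread between monocyte libraries. Without monocyte library 1 the fit tested 108 genes of the wider list and 13122 genes in all. No share of all genes was set beside the calls in the wider list from such fits. The number of those calls therefore cannot be read as a result. For the wider list the median (−0.997) was −4.86 with library totals, −3.19 with TMM factors from well covered genes and −3.63 to −0.47 with 1 library left out, and calls higher numbered 10 by DESeq2 and 0 to 8 with 1 library left out (8 without monocyte library 1), with 1 call lower by DESeq2. Division genes lower in both monocyte libraries numbered 14, or 4 on the TMM scale, beside 48.0% and 21.5% of all genes tested. With 1 library left out they numbered 14 to 31, beside 55.2% to 75.5% where that share was taken. Division genes higher in both numbered 0, beside 0.673% of all genes tested. With 1 library left out they numbered 0 to 2, for which no share of all genes was taken, so that count cannot be read as a result. Division genes detected numbered 30 in microglia library 3 (13 with a minimum of 10 reads, 14 with 1 CPM), 28 in monocyte library 1 (3 and 7) and 29 in monocyte library 2 (11 and 14). Roles lower in both numbered 4, and 0 after division by TMM factors, and roles higher 0 and 2. The cause was not tested.

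Log2 fold changes turned as follows. With limma-voom they were Mcm3 0.35, Mcm4 0.75, Mcm6 0.0097, Rrm1 1.23 and Ube2c 0.48. With DESeq2 they were Mcm4 0.0036, Mcm6 0.26 and Ube2c 0.67, and with RLE factors Mcm4 0.0082, Mcm6 0.24 and Ube2c 0.70. With library totals they were Ccne2 −2.95, Cdk1 −2.08, Cdk2 −2.33, Cdkn1a −1.54, E2f4 −0.42, Mki67 −1.04, Top2a −3.71, Aurka −4.34, Aurkb −3.01 and Stmn1 −3.21. With no filter they were Ccne2 −0.059, Top2a −0.26, Aurka −0.66 and Stmn1 −0.39. With TMM factors from well covered genes they were Ccne2 −1.27, Cdk1 −1.15, Cdkn1a −0.82, Mki67 −0.36, Top2a −1.57, Aurka −2.13, Aurkb −0.86 and Stmn1 −1.59. With 1 library left out, these genes changed sign within the ranges Mcm6 −2.82 to 0.14, Mcm7 −9.88 to 0.87, Rrm1 −2.24 to 1.99, Tyms −3.87 to 0.51, Ccne2 −1.16 to 1.08, Ccna2 −0.73 to 5.39, Cdk1 −7.30 to 1.03, Cdk2 −7.61 to 2.68, Cdk6 −1.56 to 3.54, Cdkn1a −3.10 to 1.49, Rb1 −3.57 to 0.62, E2f4 −1.88 to 2.86, Mki67 −1.48 to 2.21, Top2a −2.64 to 2.19, Aurka −6.85 to 0.86, Aurkb −2.23 to 1.69, Stmn1 −1.05 to 0.33, Ube2c −9.84 to 0.16, Spc24 −5.46 to 9.06, Prim1 −6.97 to 9.19, Lin52 −6.11 to 8.999, Uhrf1 −1.43 to 8.13 and Pole2 −7.59 to 7.72. Some of these ranges lack a fit, because the gene did not pass the filter in it. Mcm6, Aurka and Aurkb had no value without microglia library 1 or without microglia library 2. Ccna2, Spc24, Lin52 and Pole2 had none without microglia library 2, and Uhrf1 none without microglia library 1. Monocyte library 1 held 114 reads over the 40 genes out of 3417150, so most values there rest on few reads. Pooled ratios on TMM-scaled totals, and without microglia library 3, were added after the data were seen.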
